A study of Mus musculus with 18 samples.

Results

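The comparison set the brainstem of wild-type mice against the hippocampus of wild-type mice, on 3 arrays each, 6 of the 18 arrays in the series. All mice were males of the strain 129SV, described as unstressed; the age is not given. The other 12 arrays held wild-type cortex and the cortex, hippocampus and brainstem of mice without Nrf2 (gene symbol Nfe2l2), again 3 each. Nrf2 is the transcription factor that activates antioxidant and detoxification genes, and its deletion was present in every knockout mouse and in no mouse of the comparison described here. The design text speaks of independent RNAs per region and genotype but does not say how the animals of different regions relate, so the p-values measure only the spread between these samples. Levels are log2 intensities minus the 75th percentile of the array, so that 0 is the level of a fairly bright probe. Differences are brainstem minus hippocampus on this log2 scale, with the standard error of the limma fit after ±. Levels of different genes come from different probes and are not set against each other.

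The hippocampus belongs to the telencephalon. Its principal cells, the pyramidal neurons of the CA fields and the granule neurons of the dentate gyrus, release glutamate onto spines rich in calcium-dependent signalling proteins. The brainstem joins forebrain and spinal cord. It houses the cell bodies of most serotonin, noradrenaline and dopamine neurons of the brain, cranial motor neurons, and long myelinated tracts. Its neurons are specified by homeodomain factors of the midbrain and hindbrain, among them the Hox genes, whereas the Emx and Neurod factors specify the telencephalon.

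Of 22671 genes tested, 9413 (41.5%) passed an adjusted p of 0.05 in limma (Benjamini-Hochberg over all genes) and are referred to as called. In brainstem 5029 (22.2%) were higher and 4384 (19.3%) lower than in hippocampus. The difference was over 2-fold for 1763 higher genes (7.78%) and 1861 lower genes (8.21%), and over 4-fold for 1040 genes. The median difference of all genes was -0.01. Of the called genes, 9256 had levels that did not overlap between the groups, which held for 57.3% of all genes tested. Counts in the gene lists are read against these shares. The arrays carried the markers of their labelled regions, as described for Hox genes, serotonin and hippocampal genes further on. The groups are those of the scanner files: in the deposited series table the columns named for wild-type hippocampus 1, 2 and 3 held the scanner values of wild-type hippocampus 2, wild-type hippocampus 3 and knockout hippocampus 1. Nfe2l2, the deleted gene, read 0.93, 1.07 and 0.82 on the 3 wild-type hippocampus arrays used here and -3.63 to -5.86 on the 3 knockout hippocampus arrays, and 8051 to 8221 genes were called without 1 of the hippocampus arrays. Array to array, r across genes was 0.986 to 0.993 among brainstem arrays, 0.991 to 0.995 among hippocampus arrays and 0.946 to 0.960 between the regions. Brainstem arrays 1 and 2 shared slide 1, brainstem array 3 and hippocampus array 1 shared slide 2, and hippocampus arrays 2 and 3 were on slide 3. With slide as a block, 9408 of the 9413 differences kept their direction and 6196 were called, and among the 3624 calls over 2-fold 3072 were called. In these tissue samples, fewer cells of a type and less RNA per cell cannot be told apart.

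**Figure D1:**
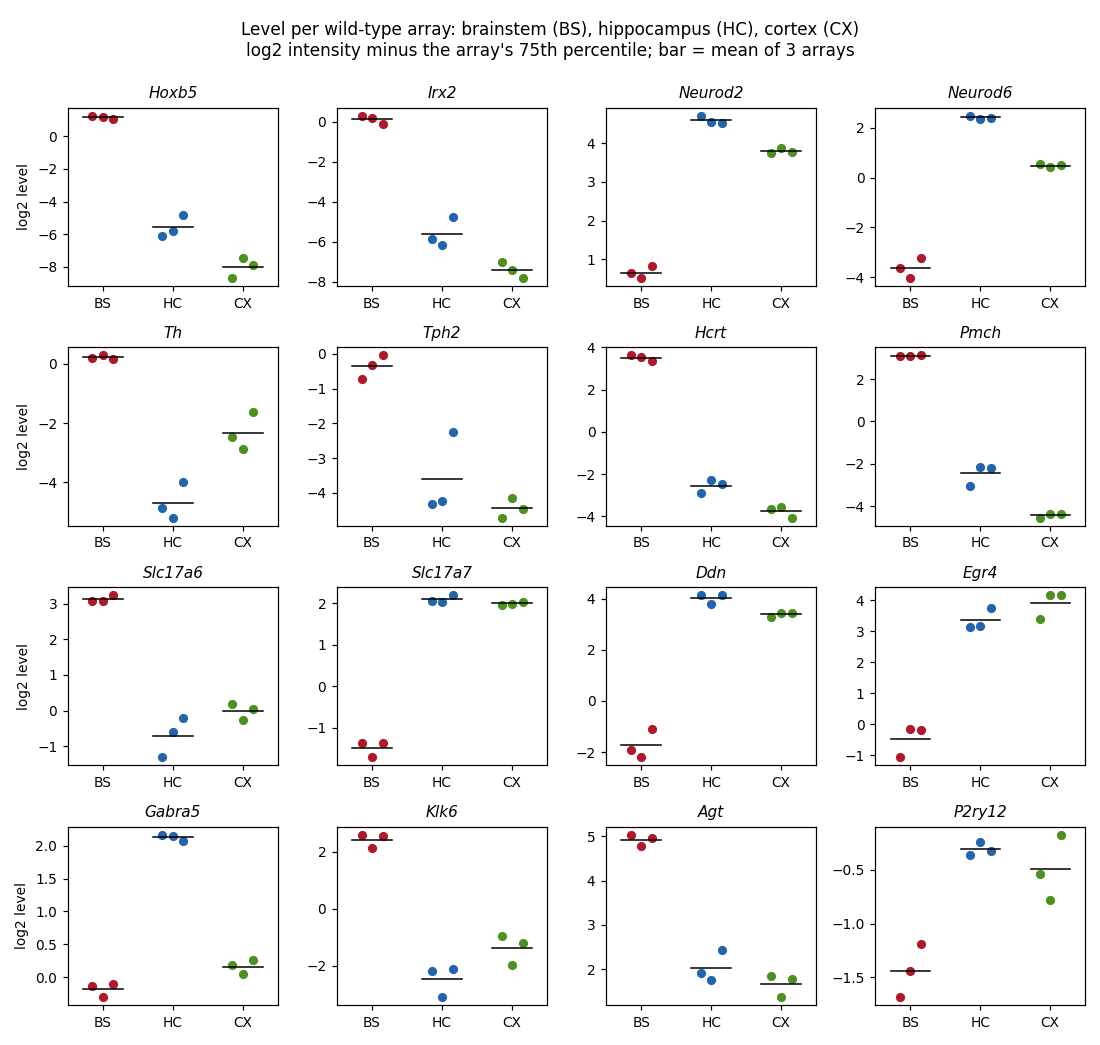
Levels of 16 genes on each of the 9 wild-type arrays (log2 intensity minus the array's 75th percentile, vertical axis), with brainstem (BS), hippocampus (HC) and cortex (CX) side by side; points are arrays and bars are means of 3. Brainstem and hippocampus arrays do not overlap in any of the 16 panels, whose genes were picked among those called. Levels near -7 and lower are at or under background, and each panel has its own vertical scale.

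Transcription factors of position along the neural axis differed between the regions. Of 28 Hox genes on the array 17 passed the filter and were tested, and of these 16 were higher in brainstem and 0 lower. The filter asked for a probe well above background on all 3 arrays of any 1 group. Genes dark in hippocampus could enter only through a group where they were brighter, so part of this count follows from the filter. Hoxb5, a factor of the caudal hindbrain, read 1.27, 1.18 and 1.09 on the 3 brainstem arrays and -6.11, -5.81 and -4.81 on the hippocampus arrays. The difference of 6.75 ± 0.49 (adjusted p = 6.14e-08) was the largest of all named genes measured above background in both regions. Hoxb6 differed by 6.23 ± 0.56 (adjusted p = 5.53e-07), with brainstem levels of 0.67, 0.17 and 0.24 against -6.27, -6.18 and -5.16. On the hippocampus arrays 10 Hox genes were nowhere well above background, and for these a lower bound of the fold is given. It takes for each hippocampus array the higher of the measured level and a floor, set at the lowest signal of probes well above background or the 95th percentile of the probes that were not, whichever was higher. In this way Hoxa5 was at least 31.3-fold higher in brainstem (measured means -1.69 and -7.72, adjusted p = 3.66e-06). Hoxa4 was at least 32.9-fold higher (means -1.62 and -7.48, adjusted p = 1.90e-08) and Hoxb7 at least 27.6-fold (means -1.87 and -7.99, adjusted p = 2.71e-05). The median of the 17 differences was 4.85 as fitted and 3.43 with these genes at their bound; with normexp background correction the fitted median was 1.43. Hoxa3 was not called, with -4.12, -3.81 and -3.38 in brainstem and -3.32, -3.36 and -3.18 in hippocampus on its brightest probe (adjusted p = 0.115). This rests on the probe: its other probe differed by 3.07 and was well above background on all brainstem arrays and on no hippocampus array, so that with the mean of all probes 17 of 17 Hox genes were higher. On the brightest probe Hoxa3 was called lower without brainstem array 3 and with replicate number as a block.

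Of 37 other midbrain and hindbrain transcription factors, 33 were higher in brainstem and 2 lower, with a median of 2.95 (2.69 with bounds, 1.22 with normexp). The 37 had passed the filter out of 47 on the array, and 6 carried a bound, so the same limit applies. Irx2, of the Iroquois homeobox family, read 0.30, 0.17 and -0.12 in brainstem and -5.88, -6.16 and -4.74 in hippocampus (5.71 ± 0.64, adjusted p = 4.95e-06). Gata3, required in serotonin neurons of the hindbrain and in midbrain GABA neurons, read -0.01, -0.13 and -0.11 and -5.44, -5.95 and -4.53 (5.22 ± 0.70, adjusted p = 2.99e-05). In both genes hippocampus array 3 was the highest of its group and remained far under the lowest brainstem array. Lhx5 differed by 4.60 ± 0.47, Irx1 by 4.37 ± 0.23, and En2, the engrailed factor of the midbrain and hindbrain junction, by 2.96 ± 0.17. Fev, the ETS factor that defines serotonin neurons, was lower on all arrays of hippocampus (-5.89, -5.63 and -5.00) than of brainstem (-3.58, -4.0 and -4.18; adjusted p = 5.94e-05). Phox2a, needed for noradrenaline neurons, was at least 4.87-fold higher (means -4.37 and -7.32, adjusted p = 7.29e-06). The lower genes were Evx2 (-2.0 ± 0.50) and Nr4a2 (-2.22 ± 0.21). Nr4a2 is needed for dopamine neurons and is also an immediate early gene. Otx2 was not called, and neither was Pou4f1 on its brightest probe, with a difference of 0.11. The other Pou4f1 probe differed by 4.70 and was well above background on all brainstem arrays and on no hippocampus array.

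The opposite sign prevailed among 40 telencephalic transcription factors, of which 29 were lower in brainstem and 3 higher (median -1.97). Neurod6, a factor of pyramidal neurons, read -3.64, -4.03 and -3.22 against 2.5, 2.38 and 2.39 (-6.05 ± 0.22, adjusted p = 1.33e-10), and Neurod2 0.64, 0.52 and 0.82 against 4.71, 4.55 and 4.52 (-3.94 ± 0.12, adjusted p = 4.96e-11). Emx2 was lower by -3.72 ± 0.20, Bhlhe22 by -3.40 ± 0.17 and Bcl11b by -3.1 ± 0.16. Fezf2 and Tbr1 were above background on all hippocampus arrays and on part of the brainstem arrays; Fezf2 read -0.32, -0.33 and -0.34 in hippocampus and -6.20, -5.69 and -4.96 in brainstem. Lhx9 was higher in brainstem by 0.97 ± 0.19 (adjusted p = 8.09e-04).

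**Figure D2:**
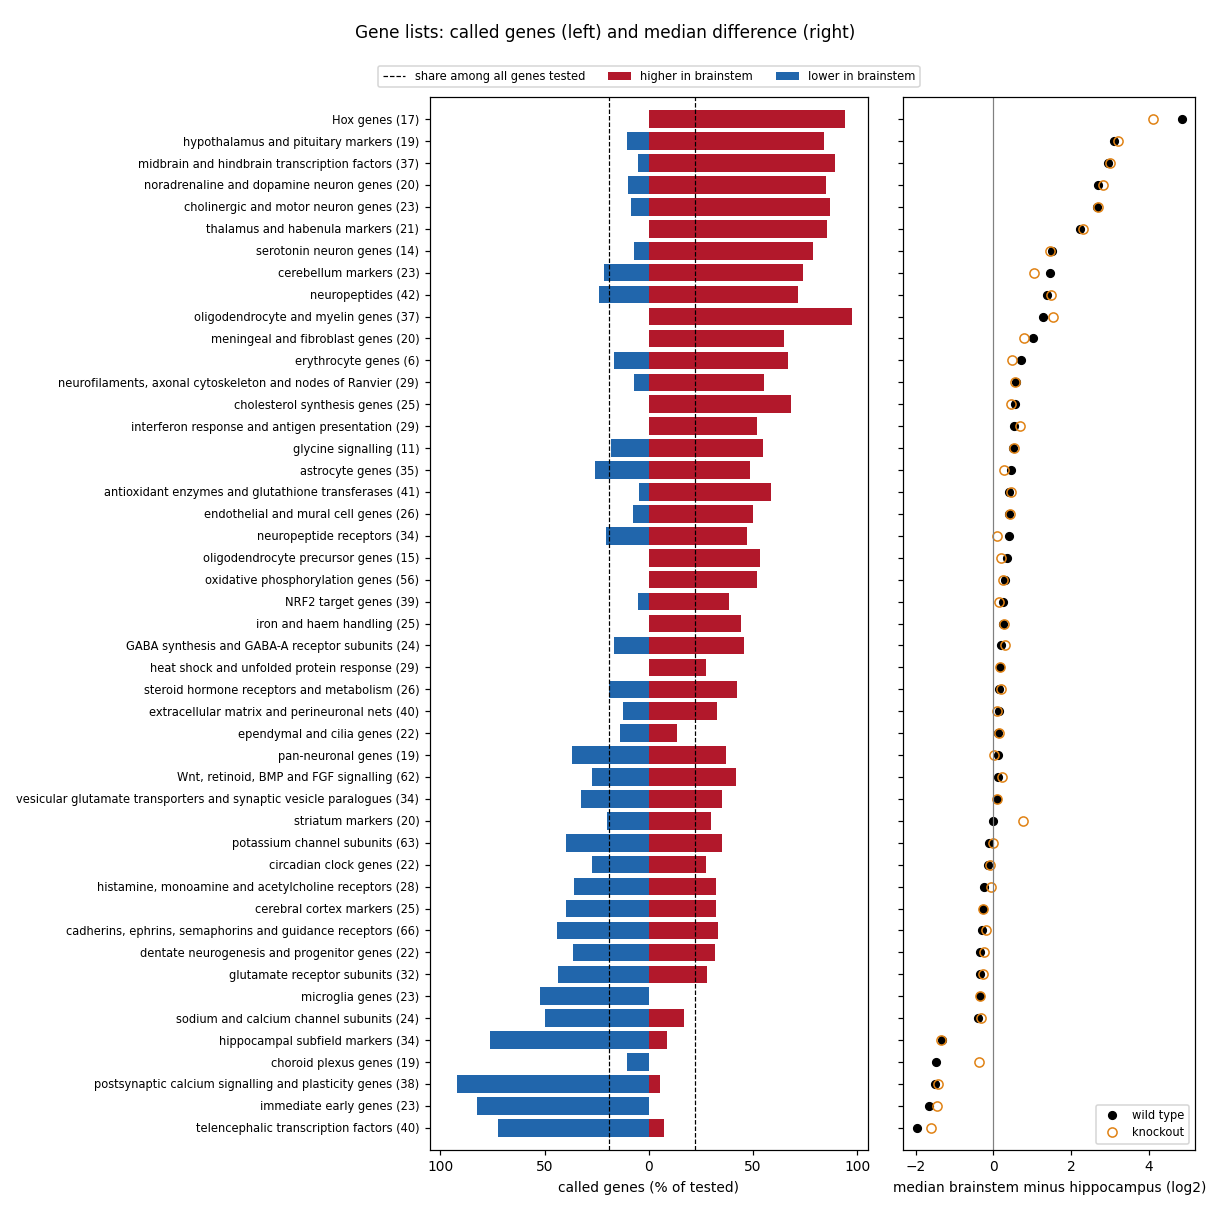
Called genes in 47 gene lists, in percent of the genes tested in each list (left; red to the right, higher in brainstem; blue to the left, lower; number of genes tested in parentheses; dashed lines, 22.2% and 19.3% of all genes), and the median brainstem minus hippocampus difference of each list on the log2 scale in wild-type mice (right, filled) and knockout mice (right, open). Hox genes top the order at 4.85 and telencephalic transcription factors end it at -1.97 in wild-type mice.

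Genes that make and carry the monoamine transmitters were higher in brainstem. In the noradrenaline and dopamine list, 17 of 20 were higher and 2 lower (median 2.69). In the serotonin list 11 of 14 were higher and 1 lower (median 1.5, or 0.93 with normexp). The 20 had passed the filter out of 25 on the array and the 14 out of 18, so the limit given for Hox genes applies. Th encodes tyrosine hydroxylase, the first enzyme of catecholamine synthesis. It read 0.18, 0.28 and 0.17 in brainstem and -4.87, -5.19 and -4.0 in hippocampus, a difference of 4.90 ± 0.42 (adjusted p = 3.45e-07). Slc6a3, the dopamine transporter, read 3.70, 3.71 and 3.5 and -2.66, -2.40 and -0.80 (5.59 ± 0.41, adjusted p = 7.27e-08). Slc6a2, the noradrenaline transporter, was at least 38.1-fold higher in brainstem (means -1.41 and -8.0, adjusted p = 6.00e-07). Dbh, which turns dopamine into noradrenaline, differed by 2.79 ± 0.36 (adjusted p = 2.11e-05). Tph2, the rate-limiting enzyme of serotonin synthesis in the brain, read -0.71, -0.32 and -0.04 and -4.33, -4.25 and -2.26 (3.25 ± 0.44, adjusted p = 2.83e-05).

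Slc18a2, the vesicular monoamine transporter shared by these neurons, differed by 3.74 ± 0.37 and Ddc, the decarboxylase they share, by 2.71 ± 0.17. Slc6a4, the serotonin transporter, read -0.25, -0.23 and -0.07 in brainstem and -6.71, -6.14 and -2.37 in hippocampus, where part of the arrays were above background. Hippocampus array 3 was the highest of its group in Slc6a4, Tph2, Slc6a3, Slc18a2 and Th; every brainstem array was higher than it in all 5. The genes lower in brainstem were Htr1a, a serotonin receptor dense in hippocampus (-1.09 ± 0.17), Npy (-1.86 ± 0.13) and Nr4a2. Npy encodes a peptide of noradrenaline neurons and of hippocampal interneurons.

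The upstream sequence of Th is printed because this gene had the largest difference among the synthesising enzymes of the monoamine lists and its promoter holds a known cyclic AMP response element (CRE). It covers the 250 bases before the annotated start at chr7:142899996-142900245, minus strand, in the RefSeq annotation of GRCm38.p6, and capitals mark the CRE, whose letters are TGACGTCA.
Th: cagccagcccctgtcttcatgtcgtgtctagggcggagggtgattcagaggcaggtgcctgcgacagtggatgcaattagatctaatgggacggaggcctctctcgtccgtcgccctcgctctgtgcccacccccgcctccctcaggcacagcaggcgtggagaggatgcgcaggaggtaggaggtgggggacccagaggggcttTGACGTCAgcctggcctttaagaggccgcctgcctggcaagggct
The element runs from -45 to -38 before the start. Searched on both strands of the same window, it occurred in 478 of 27025 genes (1.77%), in 1 of 16 genes with a sequence in the noradrenaline and dopamine list (Th itself) and in 0 of 25 in the postsynaptic plasticity list described further on. A match describes the letters of the window and says nothing about binding in these tissues.

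In the cholinergic and motor neuron list, 20 of 23 genes were higher in brainstem and 2 lower (median 2.66, or 2.41 with bounds and 0.89 with normexp). The 23 had passed the filter out of 26 on the array, and 6 carried a bound. Slc5a7, the choline transporter of cholinergic endings, read -0.44, -0.59 and -0.53 in brainstem and -5.37, -4.82 and -4.38 in hippocampus (4.34 ± 0.29, adjusted p = 2.51e-08). Slc18a3, which loads acetylcholine into vesicles, was at least 6.5-fold higher (means -3.96 and -8.69, adjusted p = 2.17e-07). Chat, the synthesising enzyme, was close to background in brainstem (-5.71, -5.64 and -6.11) and under it in hippocampus; it was at least 1.79-fold higher (means -5.82 and -7.76, adjusted p = 0.00191), a call lost with normexp and with slide as a block. Calca, the calcitonin gene-related peptide of motor neurons, differed by 3.47 ± 0.26 (1.57 on its other probe), and Prph, the filament peripherin, by 3.11 ± 0.31. The nicotinic receptor genes divided. Chrna4 was higher in brainstem by 3.02 ± 0.15 (0.95 on its other probe) and Chrna6, found on dopamine neurons, at least 9.27-fold higher (means -3.45 and -8.29, adjusted p = 3.24e-10). Chrna7, the subunit of the homomeric receptor on hippocampal interneurons, was lower (-4.10, -4.26 and -4.23 against -1.88, -1.99 and -1.99; -2.24 ± 0.16, adjusted p = 4.78e-08), as was Chrna5 (-1.35 ± 0.25).

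The brainstem arrays also carried the peptide genes of the hypothalamus, which the label does not name. Hcrt, the orexin precursor made in lateral hypothalamus, read 3.62, 3.56 and 3.36 in brainstem and -2.88, -2.26 and -2.48 in hippocampus (6.06 ± 0.34, adjusted p = 5.37e-09). Pmch, the precursor of melanin-concentrating hormone from the same area, read 3.11, 3.08 and 3.12 and -3.03, -2.13 and -2.19 (5.55 ± 0.41, adjusted p = 8.54e-08). Oxt (oxytocin) differed by 5.33 ± 0.44 and Avp (vasopressin) by 5.04 ± 0.52, both with brainstem array 2 highest. In the list of hypothalamus and pituitary markers 16 of 19 were higher and 2 lower, with a median of 3.1 (2.53 with bounds, 1.84 with normexp). The 19 had passed the filter out of 25 on the array and 3 carried a bound, so the limit given for Hox genes applies. The mean level of the list was -0.87 to -0.67 on the brainstem arrays and -3.78 to -3.70 on the hippocampus arrays. The pituitary hormone gene Prl was not called and Lhb was lower by -1.17 ± 0.27.

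Markers of thalamus and habenula were higher for 18 of 21 and lower for 0 (median 2.23). Tcf7l2, a Wnt pathway factor of thalamic neurons, read 2.42, 2.61 and 2.64 and -0.98, -0.61 and -0.69 (3.32 ± 0.16, adjusted p = 1.25e-09), Prkcd differed by 2.88 ± 0.21, and Gpr151, a receptor of habenular neurons, by 2.23 ± 0.31. Of 23 cerebellum markers 17 were higher and 5 lower, with differences down to -3.16. Cbln1, a synaptic organiser of granule neurons that was also counted among the thalamus and habenula markers, differed by 3.01 ± 0.28. Pcp2, restricted to Purkinje cells in cerebellum, read -1.51, -0.77 and -0.28 in brainstem and -1.54, -1.93 and -1.68 in hippocampus (0.86, adjusted p = 0.0256, a call lost under 5 alternatives). On its other probe Pcp2 differed by 2.13. Gabra6, the GABA receptor subunit of cerebellar granule neurons, read -3.61, -2.61 and -2.28 in brainstem and -7.36, -7.88 and -6.56 in hippocampus, where part of the arrays were above background. The share of diencephalic and cerebellar tissue in the brainstem samples, and its part in the differences, was not tested.

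Hippocampal markers were mostly lower in brainstem. Of 34 genes that mark the CA fields, dentate gyrus or subiculum, 26 were lower in brainstem and 3 higher (median -1.33). Spink8, a protease inhibitor gene of pyramidal neurons of CA1, read -4.33, -4.50 and -2.76 in brainstem and 2.99, 2.59 and 2.73 in hippocampus. Its difference of -6.64 ± 0.40 (adjusted p = 1.06e-08) was the most negative of all named genes measured in both regions. Dsp, the desmosomal protein of dentate granule neurons, read -4.80, -5.27 and -5.32 and 0.93, 0.54 and 0.28 (-5.72 ± 0.36, adjusted p = 1.61e-08), and Lct, the lactase gene, -2.45, -2.73 and -2.68 and 3.41, 2.82 and 2.81 (-5.64 ± 0.24, adjusted p = 4.54e-10). The regions did not overlap in these genes, but that was a condition of naming them and is not a result. Rgs14, a signalling brake of CA2 neurons, was lower by -4.62 ± 0.20, and C1ql2, of granule neuron terminals, by -2.48 ± 0.32. Among genes well above background on no brainstem array, Cldn22 was at least 50.9-fold lower (means -6.55 in brainstem and -0.65 in hippocampus, adjusted p = 1.10e-08) and C4bp at least 14.3-fold lower (means -8.54 and -2.56, adjusted p = 1.0e-07). Prox1, the homeobox factor of granule neurons, differed by -0.74 only (adjusted p = 0.0437), with -3.14, -2.94 and -3.32 in brainstem and -2.15, -2.48 and -2.54 in hippocampus; 7 alternatives ended the call. The genes higher in brainstem were Calb2 (2.67 ± 0.25), Pcp4 (1.45 ± 0.12) and Cacng5 (1.25 ± 0.15), and of 22 genes of dentate neurogenesis 7 were higher and 8 lower.

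Postsynaptic calcium signalling and plasticity genes were lower in brainstem with few exceptions, 35 of 38 (2 higher, median -1.5). Camk2a, the kinase subunit of the spines of excitatory forebrain neurons, read 2.04, 2.15 and 1.98 in brainstem and 6.49, 5.63 and 5.80 in hippocampus (-3.91 ± 0.28, adjusted p = 6.16e-08). A second Camk2a probe, above background on all 6 arrays, differed by only -0.05. Camk2b was lower by -1.26 ± 0.10, whereas Camk2d was higher by 1.32 ± 0.34 (adjusted p = 0.00588). Nrgn (neurogranin, which binds calmodulin) read 4.06, 4.16 and 4.51 and 7.43, 7.22 and 7.41 (-3.11 ± 0.19, adjusted p = 1.01e-08). Ddn (dendrin, a dendritic and spine protein) read -1.91, -2.21 and -1.11 and 4.13, 3.79 and 4.14 (-5.76 ± 0.28, adjusted p = 1.46e-09), and Kalrn, an exchange factor for small GTPases in spines, 0.15, 0.19 and 0.44 and 4.73, 4.51 and 4.63 (-4.36 ± 0.10, adjusted p = 2.64e-12). All 6 arrays of each gene fell into 2 groups apart, as they did for 57.3% of all genes tested. For Ddn this was also a condition of naming it. Itpka, the inositol trisphosphate kinase of spines, was lower by -4.92 ± 0.32, Icam5, a dendritic adhesion protein of the telencephalon, by -4.29 ± 0.19, and Hpca (hippocalcin) by -3.07 ± 0.28. Ppp1r1b was not called.

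Immediate early genes, transcribed within minutes of synaptic activity, were lower for 19 of 23 and higher for 0 (median -1.66; 14 lower with slide as a block). Egr4 read -1.08, -0.17 and -0.18 in brainstem and 3.15, 3.18 and 3.75 in hippocampus (-3.84 ± 0.48, adjusted p = 1.59e-05). Egr2 read -4.12, -2.66 and -3.26 and -0.73, 0.45 and 0.40 (-3.38 ± 0.58, adjusted p = 2.66e-04). Arc, which acts at the synapse rather than in the nucleus, read 2.34, 2.13 and 2.18 and 4.03, 4.34 and 4.51 (-2.08 ± 0.33, adjusted p = 1.23e-04). Brainstem array 1 was the lowest array in Egr4 and Egr2 and the highest of its group in Arc. Junb was lower by -2.12 ± 0.24 and Bdnf, the neurotrophin, by -1.66 ± 0.16. Fos and Dusp1 did not share the direction, with differences of -0.06 (adjusted p = 0.933) and -0.07 (adjusted p = 0.873).

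The Egr2 upstream sequence is shown as the only 1 of 18 immediate early genes with a sequence in which the 250 bases before an annotated start held a CArG box, the site of serum response factor. The box was found in 439 of 27025 genes (1.62%) on either strand, and the CRE in 2 of the 18, Btg2 and Dusp1. The window is chr10:67537316-67537565, plus strand, RefSeq GRCm38.p6, and capitals mark the CArG box, from -72 to -63. RefSeq lists 5 starts for Egr2, of which 4 have the box in their window, and the first of these 4 by coordinate is printed.
Egr2: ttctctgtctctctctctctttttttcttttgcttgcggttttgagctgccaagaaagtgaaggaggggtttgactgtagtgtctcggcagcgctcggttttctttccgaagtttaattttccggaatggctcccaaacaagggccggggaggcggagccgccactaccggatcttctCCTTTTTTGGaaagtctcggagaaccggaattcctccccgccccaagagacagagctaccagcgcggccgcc
The match is a description of these letters. That the other genes have no match applies to this short window only.

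Transmitter release and reception differed by an exchange of family members rather than in 1 direction. Slc17a6 and Slc17a7 load glutamate into vesicles, the former in the diencephalon and brainstem and the latter in the cortex and hippocampus. Slc17a6 read 3.06, 3.07 and 3.24 in brainstem and -1.31, -0.60 and -0.21 in hippocampus (3.83 ± 0.23, adjusted p = 1.21e-08), Slc17a7 -1.37, -1.71 and -1.35 and 2.06, 2.04 and 2.20 (-3.58 ± 0.17, adjusted p = 1.03e-09). In the list of vesicular transporters and synaptic vesicle genes 12 of 34 were higher and 11 lower, a median of 0.10. Sncg (gamma-synuclein) was higher by 3.59 ± 0.17. Vamp1 was higher by 2.58 ± 0.13 and Vamp2 lower by -0.77 ± 0.10, both v-SNAREs of vesicle fusion. Cplx1 was higher by 1.0 ± 0.10 and Cplx2 lower by -1.57 ± 0.16, both complexins that clamp it. Among synapsins, Syn3 was higher by 0.83 ± 0.14 (0.67, 0.62 and -0.07 on its other probes) and Syn2 lower by -1.02 ± 0.09.

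Of 32 glutamate receptor subunits, 9 were higher and 14 lower in brainstem (median -0.33). The NMDA receptor subunits diverged most. Grin3b, enriched in motor neurons, read 0.88, 0.75 and 0.60 in brainstem and -3.39, -3.32 and -3.27 in hippocampus (4.07 ± 0.20, adjusted p = 1.45e-09). Grin2a read -4.61, -4.82 and -4.53 and -2.08, -2.18 and -2.14 (-2.52 ± 0.15, adjusted p = 1.03e-08) and Grin2b -0.76, -0.49 and -0.74 and 1.90, 1.78 and 1.73 (-2.47 ± 0.11, adjusted p = 5.19e-10). Grin1, the subunit common to all NMDA receptors, was not called (-0.23, adjusted p = 0.0945). Among AMPA receptor genes, Gria1 was lower by -1.82 ± 0.15 and Gria2 by -1.62 ± 0.11, and Gria4 was higher by 1.21 ± 0.23. The inhibitory genes leaned the other way: 11 of 24 genes of GABA synthesis and GABA-A receptors were higher and 4 lower, and of 11 glycine genes 6 were higher and 2 lower. Slc6a9, the glycine transporter of glia, read 6.04, 5.87 and 5.86 and 3.78, 3.35 and 3.76 (2.29 ± 0.15, adjusted p = 1.66e-08). Glra1, the glycine receptor subunit of adult brainstem and spinal cord, was above background on all brainstem arrays (-1.51, -1.33 and -1.68) and on part of the hippocampus arrays (-8.46, -7.20 and -6.63). Slc32a1, the vesicular carrier of both inhibitory transmitters, was higher by 1.39 ± 0.11. Gabra5, the extrasynaptic subunit dense in CA1, was lower (-0.14, -0.30 and -0.11 against 2.17, 2.15 and 2.07; -2.31 ± 0.13, adjusted p = 4.24e-09), as was, among the glycine genes, Gldc of the glycine cleavage system (-2.86 ± 0.17).

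Neuropeptide genes were higher in brainstem for 30 of 42 and lower for 10 (median 1.37). Besides the hypothalamic precursors, Trh (thyrotropin-releasing hormone) differed by 4.16 ± 0.77 and Cartpt by 3.68 ± 0.20. Uts2 (urotensin 2, a peptide of motor neurons) was at least 56.6-fold higher in brainstem (means -0.83 and -7.60, adjusted p = 2.48e-07), the largest bound of all genes with a symbol. Among the lower genes, Cck (cholecystokinin) read 4.05, 4.33 and 4.19 in brainstem and 6.13, 6.14 and 6.13 in hippocampus (-1.94 ± 0.10, adjusted p = 3.04e-09), Cort (cortistatin) was lower by -3.08 ± 0.25 and Grp by -1.89 ± 0.16. The neurotrophin Ntf3, counted in this list, was lower by -3.23 ± 0.27. Of 34 peptide receptors 16 were higher and 7 lower. Calcr, the calcitonin and amylin receptor, differed by 5.08 ± 0.37 (adjusted p = 6.03e-08), Vipr2 by 3.51 ± 0.24 and Tacr1, the substance P receptor, by 3.04 ± 0.21. The other Tacr1 probe differed by only 0.52. Npy2r, the Y2 receptor on hippocampal terminals, was lower by -2.82 ± 0.21. Receptors for monoamines, histamine and acetylcholine were split, 9 of 28 higher and 10 lower. Adra1b was higher by 2.44 ± 0.26, whereas Adra1d was lower by -1.39 ± 0.20, both alpha-1 adrenoceptors; Drd5, a dopamine receptor of the D1 class, was lower by -1.82 ± 0.18 and Chrm3, a muscarinic receptor, by -1.45 ± 0.20.

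Ion channel genes changed in both directions too. Of 63 potassium channel subunits 22 were higher and 25 lower. The largest rises were those of Kcng4 (2.98 ± 0.20), a modifier subunit, and Kcnh2 (2.18 ± 0.22), the erg channel, followed by Hcn2 (1.95 ± 0.18), a pacemaker channel grouped here for its structure. Kcnh3, a forebrain channel of the elk family, read -5.45, -5.20 and -4.84 in brainstem and -1.01, -1.17 and -0.83 in hippocampus (-4.16 ± 0.22, adjusted p = 3.43e-09). Kcnj4, an inward rectifier of forebrain neurons, read -0.15, -0.05 and 0.28 and 4.31, 3.97 and 4.21 (-4.14 ± 0.20, adjusted p = 1.46e-09). Kcnv1, a silent subunit, was at least 7.74-fold lower (means -8.27 and -3.45, adjusted p = 8.21e-10). Of 24 sodium and calcium channel subunits 4 were higher and 12 lower. Cacna2d2, an auxiliary calcium channel subunit, was higher by 2.05 ± 0.18, Scn3b, a sodium channel beta subunit, was lower by -2.16 ± 0.17, and Cacna1h, a T-type channel, by -1.86 ± 0.18.

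Genes of long axons and myelin were higher in brainstem. Of 29 genes of neurofilaments, axonal cytoskeleton and nodes of Ranvier 16 were higher and 2 lower (median 0.57). Nefh, the heavy neurofilament chain, read 4.41, 4.39 and 4.56 in brainstem and 1.49, 1.67 and 1.84 in hippocampus (2.79 ± 0.13, adjusted p = 1.33e-09). The medium chain Nefm differed by 2.14 ± 0.14 and the light chain Nefl by 0.84 ± 0.11. Of 37 oligodendrocyte and myelin genes 36 were higher and 0 lower (median 1.27; 29 higher with slide as a block, and a median of 0.99 between the wild-type arrays of slide 2 alone). The mean level of the list was 2.44 to 2.53 on the brainstem arrays and 0.98 to 1.34 on the hippocampus arrays. Klk6, the protease of mature oligodendrocytes, read 2.59, 2.12 and 2.54 and -2.17, -3.09 and -2.12 (4.88 ± 0.38, adjusted p = 1.41e-07), and Mog, a protein of the outermost myelin layer, 1.01, 1.21 and 0.90 and -0.48, -0.75 and -0.81 (1.72 ± 0.18, adjusted p = 2.48e-06). Hapln2, a link protein at nodes, differed by 2.38 ± 0.27. Mbp, myelin basic protein, read 6.73, 6.97 and 7.02 and 6.57, 6.21 and 6.37 (0.52 ± 0.22, adjusted p = 0.0705), so it was not called, and of its other 2 probes 1 differed by 1.04 and 1 by -1.08. Of 15 precursor genes 8 were higher and 0 lower (5 higher with slide as a block), while Pdgfra, the defining receptor of precursors, differed by 0.03 and was not called.

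Astrocyte genes were mixed, 17 of 35 higher and 9 lower (median 0.46). Agt (angiotensinogen), made by astrocytes of brainstem and diencephalon, read 5.03, 4.78 and 4.95 in brainstem and 1.92, 1.75 and 2.43 in hippocampus (2.89 ± 0.16, adjusted p = 4.48e-09). Itih3 differed by 2.56 ± 0.15, Kcnj10, the potassium channel of astrocyte processes, by 1.77 ± 0.12 and S100b by 1.64 ± 0.16. Hopx was lower by -1.32 ± 0.19 and Gdf10 by -1.13 ± 0.11. Gfap and Gja1, which define the cell type, were not called (-0.08 for either gene). Microglia genes were lower for 12 of 23 and higher for 0 (median -0.36), by small amounts. P2ry12, the purine receptor of resting microglia, read -1.69, -1.44 and -1.19 and -0.36, -0.23 and -0.33 (-1.13 ± 0.21, adjusted p = 5.16e-04), and Itgam was lower by -0.83 ± 0.18 (-0.35 on its other probe). The mean of the microglia list was -0.16 to -0.11 on the brainstem arrays and 0.16 to 0.29 on the hippocampus arrays.

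**Figure D3:**
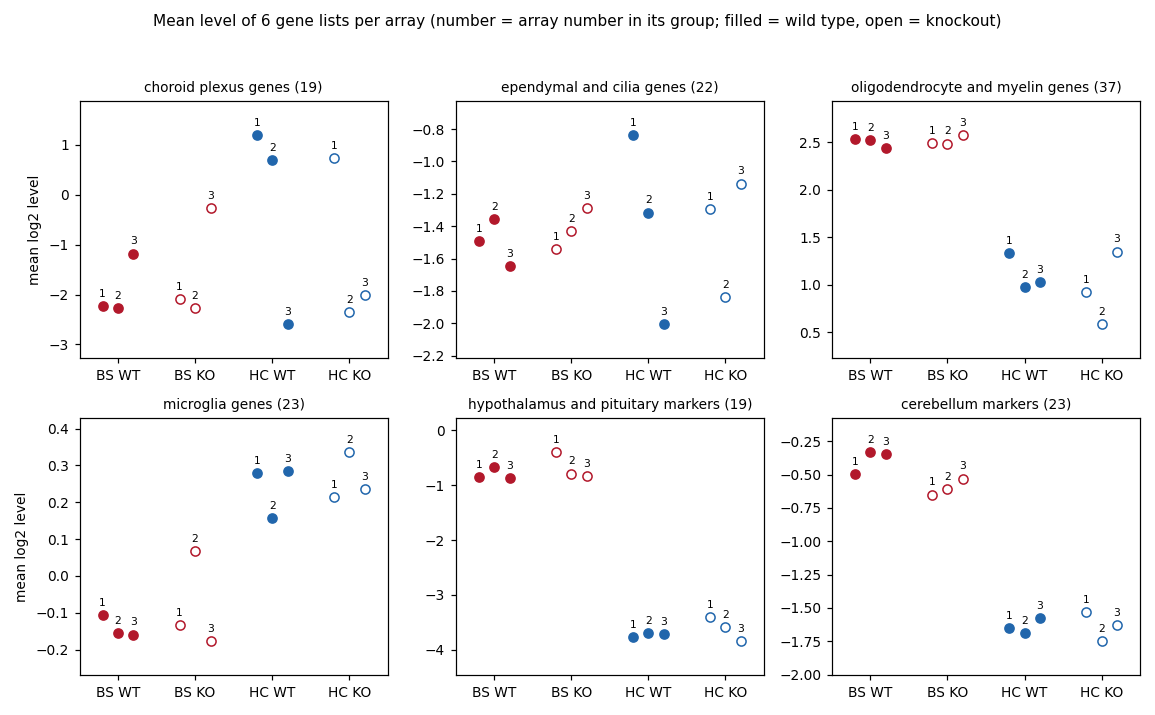
Mean log2 level of 6 gene lists (number of genes in parentheses) on the brainstem (BS) and hippocampus (HC) arrays of wild-type (WT, filled) and knockout (KO, open) mice; numbers at the points number the arrays of a group. Myelin, hypothalamus and cerebellum lists separate the regions in both genotypes, whereas the choroid plexus list is high on some hippocampus arrays and low on others; each panel has its own vertical scale.

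Vessel and meningeal genes were higher in brainstem. Of 26 endothelial and mural cell genes 13 were higher and 2 lower, and 8 were higher without hippocampus array 1. Notch3, the receptor of mural cells, differed by 1.10 ± 0.16, whereas Cldn5, of endothelial tight junctions, was not called (0.43). Of 20 meningeal and fibroblast genes 13 were higher and 0 lower (median 1.02). Slc47a1 differed by 1.95 ± 0.28, Aldh1a2, the retinoic acid enzyme of meninges, by 1.60 ± 0.25, and Ptgds, the prostaglandin D synthase of leptomeninges and oligodendrocytes, read 6.96, 7.05 and 7.22 and 5.45, 5.50 and 5.66 (1.54 ± 0.22, adjusted p = 4.52e-05). Erythrocyte genes were higher for 4 of 6 and lower for 1.

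Choroid plexus genes followed single arrays. Ttr (transthyretin), the main secreted protein of the plexus, read -4.57, -5.03 and 0.03 in brainstem and 3.69, 3.28 and -2.43 in hippocampus. Brainstem array 3 was high and hippocampus array 3 low, so the groups overlapped and the difference was not called (-4.71 ± 2.15, adjusted p = 0.0938). Kcne2, a potassium channel subunit of the same epithelium, read -3.48, -3.67 and -0.71 and 2.48, 1.96 and -3.29, with the same arrays apart. Of the 19 genes of the list 0 were higher and 2 lower, Kl (-2.95) and Msx1 (-1.41); without hippocampus array 3, 12 were lower. The mean of the list was -2.27 to -1.18 on the brainstem arrays and -2.59 to 1.19 on the hippocampus arrays. Of 22 ependymal and cilia genes 3 were higher and 3 lower.

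Adhesion and signalling genes were called often and in both directions. Of 66 cadherins, ephrins, semaphorins and guidance receptors 22 were higher and 29 lower. Cdh7 was higher by 2.74 ± 0.29 and Epha8 by 2.19 ± 0.19. Robo3, a receptor of commissural axons, was lower by -2.89 ± 0.27, Pcdh20 by -2.85 ± 0.16 and Epha7, a receptor of the ephrin family, by -2.30 ± 0.20. Of 62 genes of Wnt, retinoid, BMP and FGF signalling 26 were higher and 17 lower (17 and 11 with slide as a block; 11 lower without hippocampus array 3). Fzd10, a Wnt receptor, was higher by 2.98 ± 0.16 and Sfrp2, a secreted Wnt antagonist, by 2.20 ± 0.17. Wnt2 was lower by -3.33 ± 0.44, Rspo2, a Wnt amplifier, by -2.83 ± 0.19 and Dkk3 by -2.38 ± 0.11. In the list of matrix and perineuronal net genes 13 of 40 were higher and 5 lower (32.5% and 12.5%, against 22.2% and 19.3% of all genes tested). Calls in either direction were together near the share of all genes. Sparc, secreted by glia, was higher by 2.36 ± 0.13 and Acan, the core proteoglycan of perineuronal nets, by 1.42 ± 0.17. Of 26 steroid hormone genes 11 were higher and 5 lower. Esrrb, an orphan receptor, was higher by 2.33 ± 0.20 and Esr1, the oestrogen receptor alpha, by 1.39 ± 0.22. Fkbp5, a chaperone induced by glucocorticoids, was lower by -1.63 ± 0.25 and Nr3c2, the mineralocorticoid receptor of hippocampal neurons, by -1.54 ± 0.26.

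Nfe2l2 itself did not pass the test between the regions: it read 1.06, 1.25 and 1.35 in brainstem and 0.93, 1.07 and 0.82 in hippocampus (0.28 ± 0.54, adjusted p = 0.702). The standard error is pooled with the scattered values of the knockout arrays; within the wild-type groups the SD was 0.15 and 0.12 (n = 3 each), and with only the 6 wild-type arrays the adjusted p in limma was 0.0946. The brainstem array with the lowest level lay just under the highest hippocampus array. Its inhibitor Keap1 was not called either, with 3.19, 3.12 and 2.76 and 2.96, 2.78 and 2.82. Of 39 NRF2 target genes 15 were higher and 2 lower (median 0.25; 9 higher with slide as a block). G6pdx, which supplies NADPH, read 3.13, 3.01 and 2.92 and 1.66, 1.59 and 1.64 (1.39 ± 0.09, adjusted p = 1.65e-08) and was the only target called higher by over 2-fold. Srxn1, the reductase of peroxiredoxins, differed by 0.86 ± 0.09. Cbr3, a carbonyl reductase, was lower by -1.26 ± 0.17. In mice without Nrf2 the difference of G6pdx was 1.12 and that of Srxn1 0.78.

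Of 41 antioxidant enzymes and glutathione transferases 24 were higher in brainstem and 2 lower (median 0.41). Gpx3, the secreted glutathione peroxidase, read -0.08, 0.00 and 0.14 and -3.75, -3.58 and -3.02 (3.48 ± 0.24, adjusted p = 3.39e-08). Mgst2 differed by 2.38 ± 0.29, Gstt3 by 2.17 ± 0.20 and Gstt1 by 1.31 ± 0.14, all of them transferases of glutathione, while Msra, which reduces oxidised methionine, was lower by -1.28 ± 0.09. Iron and haem genes were higher for 11 of 25 and lower for 0. They were led by Steap2, a metalloreductase (1.91 ± 0.32), and Trf, the transferrin of oligodendrocytes (1.84 ± 0.19). Cholesterol synthesis genes were higher for 17 of 25 and lower for 0 (median 0.56). Stard4, a sterol carrier, differed by 1.39 ± 0.27 (0.66 and 0.86 on its other probes).

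Oxidative phosphorylation genes were higher for 29 of 56 and lower for 0 (median 0.30), all by less than 2-fold; 15 were higher with slide as a block and 19 without brainstem array 2 or hippocampus array 2. Ndufb8, of complex I, differed by 0.66 ± 0.10. Cox7c, of complex IV, had the most negative value of the list (-2.46) and followed the slide: it read -3.70, -3.40 and -0.00 in brainstem, with the 2 arrays of slide 1 low, and 0.02, 0.07 and 0.21 in hippocampus. Interferon and antigen presentation genes were higher for 15 of 29 and lower for 0 (6 higher with slide as a block). Oas1a, an interferon-induced sensor of double-stranded RNA, differed by 1.32 ± 0.18 and Isg15 by 1.13 ± 0.19. Of 29 heat shock and unfolded protein response genes 8 were higher and 0 lower, a share near that of all genes tested, with Hspb1, a small heat shock protein, at 1.34 ± 0.18. Circadian clock genes were split, 6 of 22 in either direction, and Npas2, a partner of the clock complex in forebrain, was lower by -1.55 ± 0.25. Pan-neuronal genes were split as well, 7 of 19 in either direction; 4 were higher without hippocampus array 1. Tubb3, neuronal tubulin, was higher by 1.01 ± 0.15 and Syt1, the calcium sensor of release, lower by -0.94 ± 0.12.

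The cortex arrays show for named genes whether a lower level in brainstem was shared with cortex. This comparison uses the same brainstem and hippocampus arrays, so overlaps of calls are partly built in. Hippocampus against cortex gave 3798 calls (16.8%), with 7.06% of genes higher and 9.69% lower, and brainstem against cortex 8088 (35.7%). Of the 4384 genes lower in brainstem than in hippocampus, 1063 were higher in hippocampus than in cortex and 295 lower. Both contrasts use the same hippocampus arrays, so these counts are not read as a result. Dsp read -5.34, -4.93 and -4.67 in cortex and was higher in hippocampus by 5.56 ± 0.36 (adjusted p = 2.51e-07). Lct read -1.63, -1.78 and -1.20 (4.55 ± 0.24 higher in hippocampus, adjusted p = 5.06e-08) and Spink8 -1.81, -1.96 and -1.35 (4.48 ± 0.40, adjusted p = 4.49e-06). Neurod2, Ddn and Slc17a7 belonged to the shared side: Neurod2 read 3.74, 3.87 and 3.76 in cortex, Ddn 3.29, 3.44 and 3.44 and Slc17a7 1.97, 1.99 and 2.04, all far above the brainstem arrays. Th read -2.48, -2.88 and -1.64 in cortex, between the other regions. Of 20 striatum markers 6 were higher and 4 lower in brainstem, and of 25 cortex markers 8 were higher and 10 lower.

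The knockout mice provided the same pair of regions on 6 other arrays. These lay on the same slides in the same layout. Knockout brainstem arrays 1 and 2 were on slide 1 and knockout hippocampus arrays 2 and 3 on slide 3. Slide 2 held knockout brainstem array 3 and knockout hippocampus array 1. A difference that follows the slide would recur in both genotypes, so the knockout arrays cannot separate region from slide. Their region difference gave 9144 calls (40.3%), of which 4711 (20.8%) were higher in brainstem and 4433 (19.6%) lower. Of the 9413 genes called in wild-type mice, 9392 differed in the same direction in knockout mice, 7927 were called there in that direction and 0 were called in the other. Across the 9413 genes the differences of both genotypes correlated at r = 0.980 (Pearson, across genes, which are not independent), and at 0.953 across all genes tested. Hoxb5 differed by 6.45 in knockout mice, Hcrt by 6.09, Th by 5.07, Slc17a6 by 3.97, Slc17a7 by -3.79 and Neurod6 by -6.09, each near its wild-type value. Kcnj4 differed by -2.81. The change of the region difference with genotype was tested by itself in limma. In this test 0 genes (0%) were called, with 227 at an unadjusted p under 0.05, or 532 with replicate number as a block. Both are fewer than this threshold would give if no gene differed. The 0 calls therefore do not show that the region difference is the same in both genotypes. Kcnj4 had an unadjusted p of 3.64e-04 in this test and an adjusted p of 0.9999. The list medians in knockout mice were 4.11 for Hox genes, 1.53 for myelin genes, -1.42 for plasticity genes and -1.46 for immediate early genes. The choroid plexus list differed, -1.48 in wild-type and -0.38 in knockout mice, where Ttr read -3.74, -4.74 and 1.98 in brainstem and 3.20, -2.13 and -1.55 in hippocampus. Nfe2l2 read -7.36, -6.52 and -4.97 on the knockout brainstem arrays and -3.63, -5.86 and -4.50 on the knockout hippocampus arrays, all below every wild-type array.

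**Figure D4:**
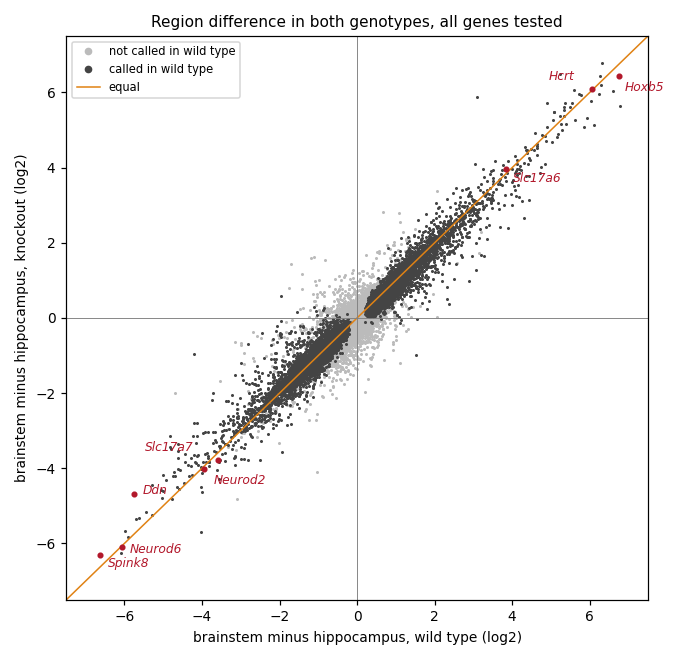
Brainstem minus hippocampus difference of each of the 22671 genes in wild-type mice (horizontal) and knockout mice (vertical), both on the log2 scale, with genes called in wild-type mice in dark grey, 8 named genes in red and equality as a line. The called genes lie along the line in both directions. Among genes with a symbol measured above background in both regions they range from Spink8 at -6.64 to Hoxb5 at 6.75 in wild-type mice. Values of genes at or under background are drawn as measured.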

How the data were processed

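RNA of 18 samples was amplified and labelled with Cy3 for Agilent 1-colour mouse arrays, per the labels. The authors deposited 1 scanner output per array, and its values are background-subtracted intensity values made with Feature Extraction 10.7.3.1 (protocol GE1_107_Sep09), per the file headers. The deposited series table also holds intensity values, but 3 of its 6 columns for these samples held another array, so it was not used.

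Control spots and outlier spots were left out, spots of a probe were averaged, and log2 of the processed intensity minus the array's 75th percentile was taken. A probe was kept if any 1 of the 6 groups had it well above background on each of its 3 arrays (30066 of 41174). List members under background in 1 region thus entered through a group where they were brighter, which favours calls in that direction. The alternative without a filter counted only list members that had passed it, so it cannot show what the filter did to these counts. Symbols came from a RefSeq table (26690 probes with 1 symbol, 14484 with none, 0 with several), and a gene was represented by its brightest probe. Where 1 region was above background on all arrays and the other on part, levels are given without a difference. Spots well above background were 65.3% to 75.1% per array and 0 were saturated; the number of arrays limits the precision. The headers name the build mm9, while the promoter sequences belong to GRCm38.p6.

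limma 3.58.1 in R 4.3.3 fitted the 18 arrays with a mean for each group (residual degrees of freedom 12, prior 2.33), two-sided, with Benjamini-Hochberg adjustment, after a test on simulated data. Alternatives were normexp background correction (offset 50, on median signals), quantile normalization, other filters, only the 6 wild-type arrays, trend and robust moderation, replicate number or slide as a block, the mean of a gene's probes and each wild-type array left out. The members and lists were chosen with earlier results of these data known, so lists (47, with 1292 of 1352 genes on the array) are described by counts and medians without a test. Some genes belong to several lists. Named were the 10 largest differences in each direction among called genes measured in both regions without overlap of the groups. Also named were the 10 largest bounds in each direction, up to 4 called members per list and direction, and members that define a cell type. Further list members were named after their values were seen. Figures were drawn with matplotlib 3.10.9. Values of some list members are not reported here.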

Additional observations from a re-analysis of the deposited data

How the results depend on the processing

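With 3 arrays per region, small differences rest most on the settings. The 9413 calls became 8587 with normexp, 9874 with quantile normalization, 10612 with replicate number as a replicate block, 7555 with slide as a fixed block and 8975 with slide as a random block, and 7808 to 9128 without 1 wild-type array. Higher genes made up 48.8% to 55.0% of the calls (53.4% as reported). The labels do not state that equal numbers in different regions are 1 animal. Correlations of same-number deviations were 0.0966, 0.18 and 0.13 in wild-type arrays and 0.14, 0.30 and 0.36 in knockout arrays, and 6 of 6 arrays of either genotype correlated best with their own number, a hint of pairing from the data. The genotype difference of the region difference stayed at 0 calls under every alternative run except 1 call without hippocampus array 2. Of 358 genes named by the rule or in the text, 300 kept direction and side of the threshold under every alternative that tested them; 2 differences were reversed, that of Adora2a with normexp (0.024 against -0.59; the cause was not tested) and that of Hoxa3 with the mean of all probes (1.29 against -0.48), whose probes differ. Of 73 other probes of 51 genes in the text that were above background on all 6 arrays, 54 gave a difference within 1.5 times that of the probe used and 4 had the other sign. List medians kept their sign in 44 of 47 lists. Counts moved by over 1.5 times, beside those given above, for genes lower in brainstem: with slide as a block 5 of 22 neurogenesis genes and 3 of 23 cerebellum markers, 4 of 19 choroid plexus genes with slide as either block or without brainstem array 3, with quantile normalization 5 of 29 axonal genes, and with only the 6 wild-type arrays 8 of 20 striatum markers; for genes higher, with slide as a block 2 of 6 erythrocyte genes and 0 of 22 ependymal genes (also 0 without hippocampus array 3; 3 as reported), 4 of 19 pan-neuronal genes without hippocampus array 1, and 1 telencephalic factor without brainstem array 2 or hippocampus array 1 (3 as reported). Counts of 0 to 2 genes moved by 1 or 2 in the Hox, thalamus, plasticity, precursor, vessel, NRF2 target, antioxidant, iron and oxidative phosphorylation lists. The alternative with the deposited series table was not run, because 3 of its 6 columns for these samples held another array.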

Other observations

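A group of genes known from neutrophils, platelets and bone was high on a single wild-type brainstem array. S100a9, a calcium-binding protein of neutrophils, read 0.20, -0.58 and 3.82 on the brainstem arrays and 0.82, 0.80 and 0.68 on the knockout brainstem arrays. S100a8, its partner, read -3.69, -4.28 and 0.51, and Mpo, the myeloperoxidase of the same cells, -5.10, -4.93 and -0.97. Ppbp, a platelet chemokine, read -4.81, -5.29 and -1.90, and Bglap, osteocalcin of bone, -4.12, -3.79 and -0.65. Cortex array 3 of the wild-type mice was the highest of its group in all 5 genes, with S100a9 at 2.49, whereas hippocampus array 3 read -1.47 for S100a9.

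Ccl21a, a chemokine of lymphatic vessels and lymph nodes, differed between mice of 1 genotype in all regions. It read -0.88, -4.79 and -1.07 in wild-type brainstem, 0.12, -5.31 and 0.16 in wild-type hippocampus and 1.15, -3.39 and 1.01 in wild-type cortex, so the array numbered 2 was low each time. All 9 knockout arrays lay between -5.29 and -3.41.

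Single probes followed the slide. Lmtk2, a membrane kinase gene, read -6.23 and -5.94 on the brainstem arrays of slide 1 and -1.66 on that of slide 2, while the hippocampus arrays on slides 2 and 3 read -1.73, -1.44 and -1.31. Between slides 1 and 2, 2260 genes were called in limma, 650 of them by over 2-fold. Of these 2260, 651 were among the 9413 called between the regions, a smaller share than the 41.5% of all genes tested. Both comparisons use the same brainstem arrays, so this overlap is not read as a result.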
